A study of Mus musculus with 4 samples.

Results

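Cd36 and 9 other genes of lipid uptake and storage were followed across cell classes, in fracture callus and in trabecular bone, with and without glucocorticoid (GC). The 10 genes were the rows of the 4 deposited matrices that carry the symbols Cd36, Lpl, Fabp4, Fabp5, Pparg, Plin2, Lipa, Apoe, Abca1 and Abcg1, out of 32285 genes, and all 10 were found in every matrix. Each has the same Ensembl identifier in the matrices and in the GRCm38 annotation, where all 10 are protein coding, and Cd36 (ENSMUSG00000002944) spans chr5:17781690-17888801 on the minus strand.

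Phagocytes take up fatty acids and modified lipoproteins at the cell surface, keep surplus lipid as triglyceride and cholesteryl ester in cytoplasmic droplets, break lipoprotein lipid down in lysosomes and pass cholesterol out to apolipoproteins. Cd36 is the scavenger receptor and fatty acid transporter of this route, and Lpl is the lipase that frees fatty acids from circulating lipoproteins. Fabp4 and Fabp5 bind fatty acids in the cytosol, Pparg is the lipid-activated nuclear receptor known for inducing Cd36 and Fabp4, Plin2 coats the droplet, Lipa is the lysosomal acid lipase, Apoe is a secreted lipid carrier, and Abca1 and Abcg1 are the cholesterol efflux pumps. In bone, macrophages clear dying cells and matrix debris during repair, which brings lipid into the cell.

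The mice were 20-week-old C57BL/6J males given placebo (control) or prednisolone, a synthetic glucocorticoid, at 6.25 mg/kg/d, and were sampled at week 2. Callus and trabecular bone were each taken from placebo and from GC mice, giving 4 groups with 1 droplet single-cell library each; the number of mice behind a library is not given in the sources used here. The labels give a subcutaneous slow-release pellet for all 4 libraries, whereas the study's methods describe daily injection for its fracture model, so the route in the callus mice is not settled. Marrow was flushed out before the bone fragments were crushed and digested with collagenase II, dispase II and DNase I.

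With 1 library per group no test between conditions was possible, and no value below has a replicate error. Levels are unique molecular identifier (UMI) counts summed over the cells of a class, divided by all UMIs of that class and scaled to CPM, with exact Poisson 95% intervals, and ratios carry exact conditional 95% intervals. All these intervals cover counting error only. Counts were not scaled by gene length, so levels are compared between classes and libraries and not between genes. Class names are short for cells like that type, since they rest on marker genes: "monocyte" stands for monocyte-like cells, and so on. The 10 genes and 54 further lipid genes were kept out of the clustering.

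After filtering, the callus libraries held 6714 control and 6890 GC cells and the trabecular ones 3830 and 4604, with median depths from 3280 to 6280.5 UMIs per cell. Callus held cartilage as labelled, with chondrocytes at 26.5% of control and 20.8% of GC cells. But in trabecular bone neutrophils made up 66.2% and 68.4% of the cells, and no osteoblast cluster was found. The only cells classed as bone-forming there were 16 control and 44 GC stromal cells. Of these, 2 and 7 cells held most of the endothelial marker UMIs of the class, as given below. The 4 libraries shared 6 to 11 cell barcodes in pairs. The 2 libraries of a tissue stood apart in places: 9 of 61 callus clusters and 7 of 43 trabecular clusters took at least 95% of their cells from 1 library, and 800 GC callus cells against 34 control callus cells lay in clusters that could not be named. The GC callus matrix was deposited with called cells of at least 500 UMIs only, while the other 3 matrices list 6794880 barcodes each, so calling of cells differed for that library.

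Promoter sequence was read for the members that the RefSeq table of GRCm38.p6 holds. It has 10 promoter windows for 6 of the 10 genes, Cd36, Plin2, Pparg, Lipa, Apoe and Abca1. The nuclear receptor half-site AGGTCA, the element to which Pparg binds in pairs with a partner receptor, was searched on both strands in the 250 bases before each start and was found in 4 of the 10 windows, in Cd36, Plin2 and Pparg, against 14.0% of 32851 promoters. The glucocorticoid receptor half-site AGAACA, searched in the same way, was found in windows of Abca1 and Apoe, against 16.1% of all promoters. Cd36 and Plin2 are shown because the results turn on them: both genes lie on the minus strand, Cd36 at chr5:17835897-17836146 and Plin2 at chr4:86670060-86670309, each window is the 250 bases before a RefSeq start, and the Cd36 start lies inside the gene's annotated span. The capitals mark the half-site as it reads from the opposite strand.
Cd36: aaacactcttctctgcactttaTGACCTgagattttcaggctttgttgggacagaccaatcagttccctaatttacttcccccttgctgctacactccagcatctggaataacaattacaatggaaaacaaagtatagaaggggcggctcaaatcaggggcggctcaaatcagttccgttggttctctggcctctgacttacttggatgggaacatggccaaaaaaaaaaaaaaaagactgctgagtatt
Plin2: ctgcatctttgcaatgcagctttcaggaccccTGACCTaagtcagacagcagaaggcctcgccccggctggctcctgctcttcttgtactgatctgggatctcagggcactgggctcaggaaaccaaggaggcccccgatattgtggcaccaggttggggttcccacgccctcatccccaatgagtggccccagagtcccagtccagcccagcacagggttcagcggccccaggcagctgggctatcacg
A match of these letters is a description of the window and not a site of binding.

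Across the classes of callus, 5 of the 10 genes had their highest level in a mononuclear phagocyte class, that is in monocytes (630 control and 601 GC cells) or C1q macrophages (65 and 67 cells), in both libraries. The share of all genes highest in these classes was not computed. The summed phagocytes had UMIs of all 11 monocyte and all 11 C1q macrophage markers, although Cd163 had 1 UMI in each library and Vsig4 1 in control and 4 in GC callus, with neither seen in the C1q macrophages of control callus. Adipocyte markers were near 0 in callus phagocytes, with 2 of 8 seen at 7 UMIs in control callus and 6 in GC callus, and Adipoq, Cidec, Cfd, Lep and Plin1 at 0 in both. Apoe, Lpl, Fabp5 and Lipa were highest in C1q macrophages and Abca1 in monocytes. Fabp4 and Pparg were highest in endothelial cells, Plin2 and Abcg1 in neutrophils, and Cd36 in erythroid cells with monocytes next to them. Some of these ranks were close in GC callus. Abca1 in C1q macrophages was 0.982 times the monocyte level (0.862 to 1.11), and Plin2 in C1q macrophages, at 437.9 CPM, was nearly as high as in neutrophils.

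**Figure D1:**
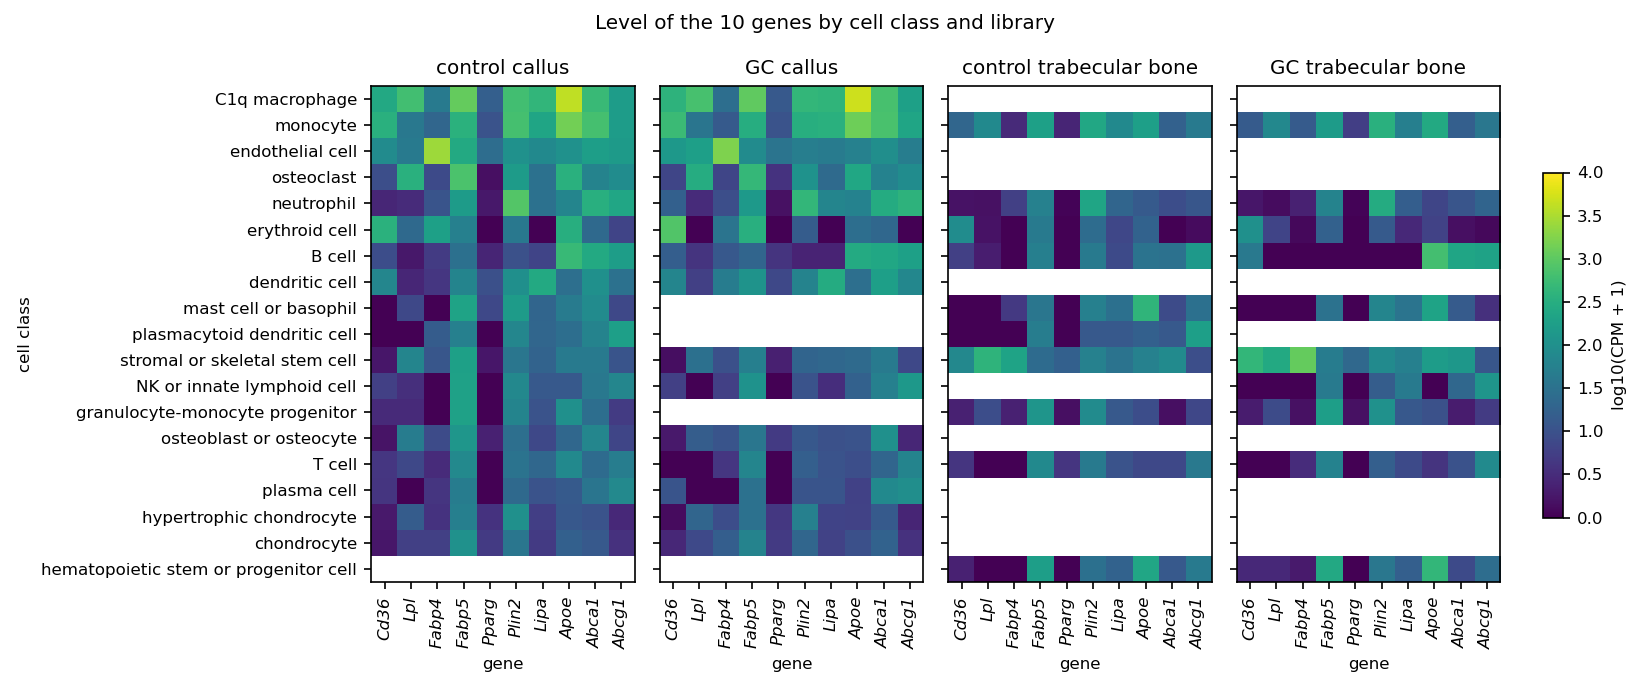
Level of the 10 genes by cell class (rows) and gene (columns) in each of the 4 libraries, as log10(CPM + 1) on a colour scale from 0 to 4. White rows mark classes with under 15 cells or not found, and the brightest squares include Apoe in C1q macrophages, 4215 and 4952 CPM in the callus libraries, and Fabp4 in endothelial cells, 2615 and 1696 CPM.

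Cd36 in callus was high in phagocytes, against bone-forming cells that had almost none. In control callus its level was 334.5 CPM in mononuclear phagocytes (1077 UMIs in 695 cells) and 0.685 CPM in bone-forming cells, the stromal or skeletal stem cells and osteoblasts or osteocytes summed (4 UMIs in 291 cells). The ratio of 489 had a 95% interval from 190 to 1797. In GC callus the levels were 502.4 CPM (1319 UMIs in 668 cells) and 0.642 CPM (3 UMIs in 322 cells), a ratio of 783 with an interval from 267 to 3801. The gap was 5.90 in control callus and 6.49 in GC callus on the log2(CPM + 5) scale.

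The same contrast held cell by cell at equal depth. After each cell was thinned to 1000 UMIs, 21.6% of control phagocytes had a Cd36 UMI (147 of 680 cells, Clopper-Pearson 95% interval 18.6 to 24.9), with 15 shallower cells left out, and 36.4% did before thinning. In GC callus the thinned share was 28.7% (186 of 648 cells, interval 25.2 to 32.4), with 20 cells left out, and 42.1% before thinning. T cells, which should lack Cd36, had 0 of 284 and 0 of 377 cells with a UMI, which allows shares up to 1.29% and 0.974% by the same interval. Median depth was 4454 and 3838 UMIs in the phagocytes and 2728 and 3056.5 UMIs in the T cells. The T cell cluster was led by a marker of another class, so chondrocytes, which should also lack the gene, are given beside it, with 0 of 1722 and 14 of 1318 cells at median depths of 25347 and 14116 UMIs. Bone-forming cells had 1 of 290 and 0 of 320 at median depths of 14855 and 12235 UMIs. Empty droplets of control callus, low-ranked barcodes far below the cells, held Cd36 at 16.9 CPM (16 UMIs).

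Among the callus classes Cd36 followed a short order. In control callus, erythroid cells (352 CPM, 64 UMIs) and monocytes (350 CPM) were not separated by their intervals, C1q macrophages (254 CPM) lay below the monocytes but had an interval that met that of the few erythroid cells, and endothelial cells (84.1 CPM) and dendritic cells (68.5 CPM) overlapped further down. In GC callus erythroid cells stood above monocytes, at 806 against 524.5 CPM, then came C1q macrophages at 381, endothelial cells at 133 and dendritic cells at 65.6 CPM. Osteoclasts, which share the monocyte lineage, had 8.13 and 5.82 CPM. Mononuclear phagocytes held 82.2% of the Cd36 UMIs of control callus and 72.4% of those of GC callus, from 4.01% and 4.73% of all UMIs.

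Trabecular bone gave another picture of Cd36. There the erythroid cells held 70.2% and 67.0% of its UMIs in control and GC, at 86.4 and 101.6 CPM, and monocytes had only 20.3 and 13.2 CPM. No C1q macrophage cluster was found in trabecular bone, so the phagocytes there were 278 control and 295 GC monocytes. Monocytes of control callus had 17.3 times the Cd36 level of monocytes of control trabecular bone (interval 13.9 to 21.7), and the GC libraries gave 39.8 times (30.8 to 52.4). Abca1 was 40.1 and 46.1 times as high in callus monocytes as in trabecular ones, and Apoe 7.80 and 4.81 times, whereas Lpl was 0.501 and 0.486 times as high. The monocyte classes were made of unlike clusters, and the class ratios mix their levels. Control Cd36 was 198 CPM in callus cluster 5 and 1679 CPM in callus cluster 17. It was 44.7 CPM in trabecular cluster 9 and at most 4.47 CPM in trabecular clusters 26, 27 and 28. Control Apoe was 1393 and 1751 CPM in callus clusters 5 and 17. It was 428 CPM in trabecular cluster 9 and at most 14.9 CPM in clusters 26, 27 and 28. The monocytes of the tissues also differed in their markers: summed neutrophil markers were 7295 CPM in those of control trabecular bone, 7395 CPM in those of GC trabecular bone, against 369.3 CPM in phagocytes of control callus and 462.8 CPM in those of GC callus. Their part in the tissue difference was not tested. Empty droplets of trabecular bone had Cd36 at 4.30 CPM (2 UMIs) in the control and 33.4 CPM (17 UMIs) in the GC library, the second of which lies above the level in GC monocytes.

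**Figure D2:**
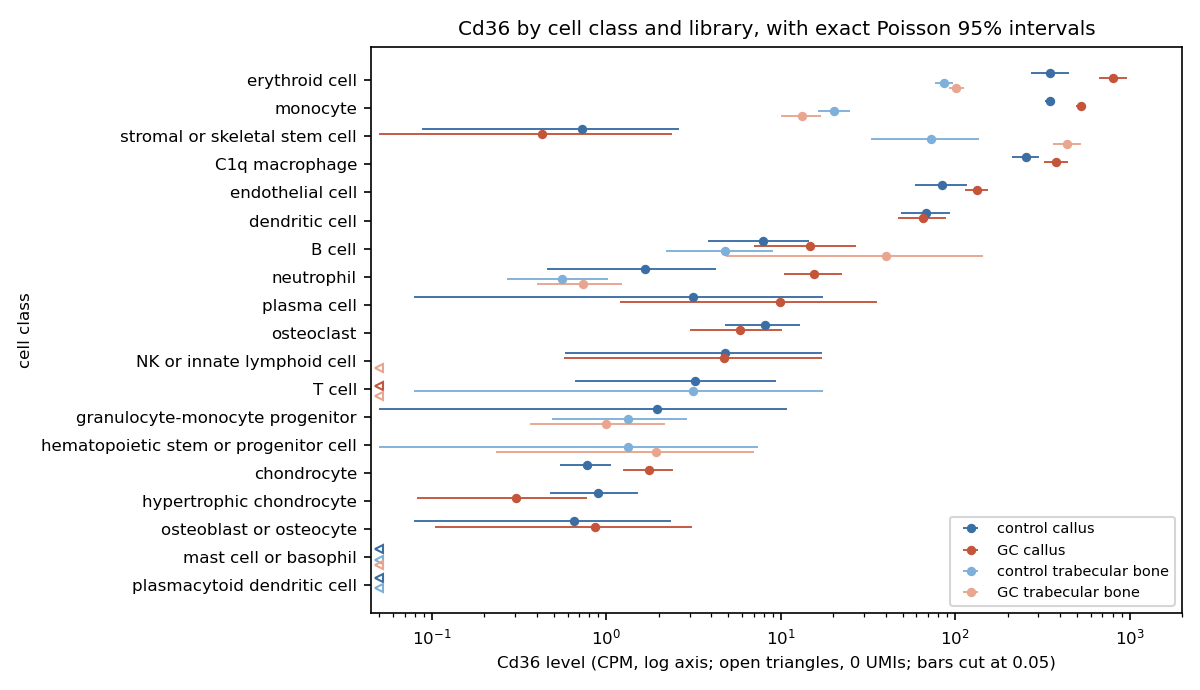
Cd36 level in CPM (log axis) by cell class, 1 point for each library, with exact Poisson 95% intervals as bars that are drawn no lower than 0.05 CPM, and open triangles for classes with 0 UMIs. Erythroid cells, monocytes and C1q macrophages of callus lie between 254 and 806 CPM, while chondrocytes, hypertrophic chondrocytes and osteoblasts lie below 2 CPM.

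Stromal cells of trabecular bone seemed an exception, at 72.3 CPM of Cd36 (9 UMIs) in the control and 440 CPM (123 UMIs) in the GC library. All of these UMIs lay in 2 control and 7 GC cells, and the same cells held all 26 and 317 Fabp4 UMIs of the class. They also held 35 of the 56 endothelial marker UMIs of the class in control and 219 of 228 in GC trabecular bone. Those cells thus carried Cd36, Fabp4 and endothelial markers together, and their part in the class values is given here in place of a ratio.

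The callus monocytes fell into 2 clusters with different levels of several lipid genes. Cluster 17 (103 control and 100 GC cells) had Cd36 at 1679 and 2069 CPM, against 198 and 314 CPM in the larger cluster 5 (527 and 501 cells), which is 8.49 times (7.46 to 9.66) and 6.59 times (5.87 to 7.41) as much. The chemokine receptor gene Cx3cr1 was at 393 and 304 CPM in cluster 17 and 40.5 and 34.3 CPM in cluster 5, and Ly6c2 at 10.8 and 7.51 against 578 and 411 CPM. In mouse monocytes, high Cx3cr1 with low Ly6c2 is the pattern of the patrolling kind, and high Ly6c2 with Ccr2 that of the classical kind.

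Several other lipid genes were higher in cluster 17 in both libraries. Abcg1 was 10.5 and 6.06 times as high as in cluster 5, Pparg 8.73 and 11.9 times on 8 to 13 UMIs in each cluster, and Lipa 2.67 and 2.59 times. Fabp4 was 30.5 times as high in control and 6.36 times in GC callus, whereas Fabp5 went the other way, at 46.8 against 389 CPM in control and 56.3 against 339.5 CPM in GC callus. Plin2 did not separate the clusters in control callus, at 641 against 653 CPM, a ratio of 0.982 with an interval from 0.837 to 1.15. Cells of cluster 17 were shallower, with median depths of 2626 and 2473 UMIs against 4660 and 3901. Summed neutrophil markers in cluster 17 were 198 CPM in control and 2190 CPM in GC callus, and their part in these values was not tested.

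C1q macrophages differed from monocytes in yet other members. Their Lpl level was 610 and 694 CPM against 38.9 and 35.1 CPM in monocytes, a ratio of 15.7 (12.6 to 19.8) in control and 19.7 (15.3 to 25.7) in GC callus. Apoe was 2.95 and 3.79 times as high as in monocytes and Fabp5 3.15 and 3.43 times. Cd36 was lower, at 0.726 times (0.601 to 0.872) and 0.727 times (0.611 to 0.860) the monocyte level. Monocyte cluster 17 held 466 of the 945 Cd36 UMIs of control monocytes and 551 of the 1164 of GC monocytes. In monocyte cluster 5, the larger one, Cd36 was 198 CPM in control callus, below the 268 and 240 CPM of C1q macrophage clusters 18 and 58, and in GC callus it was 314 CPM, against 305 and 521 CPM. Abcg1 was not separated, with ratios of 1.01 and 0.853 whose intervals hold 1.

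**Figure D3:**
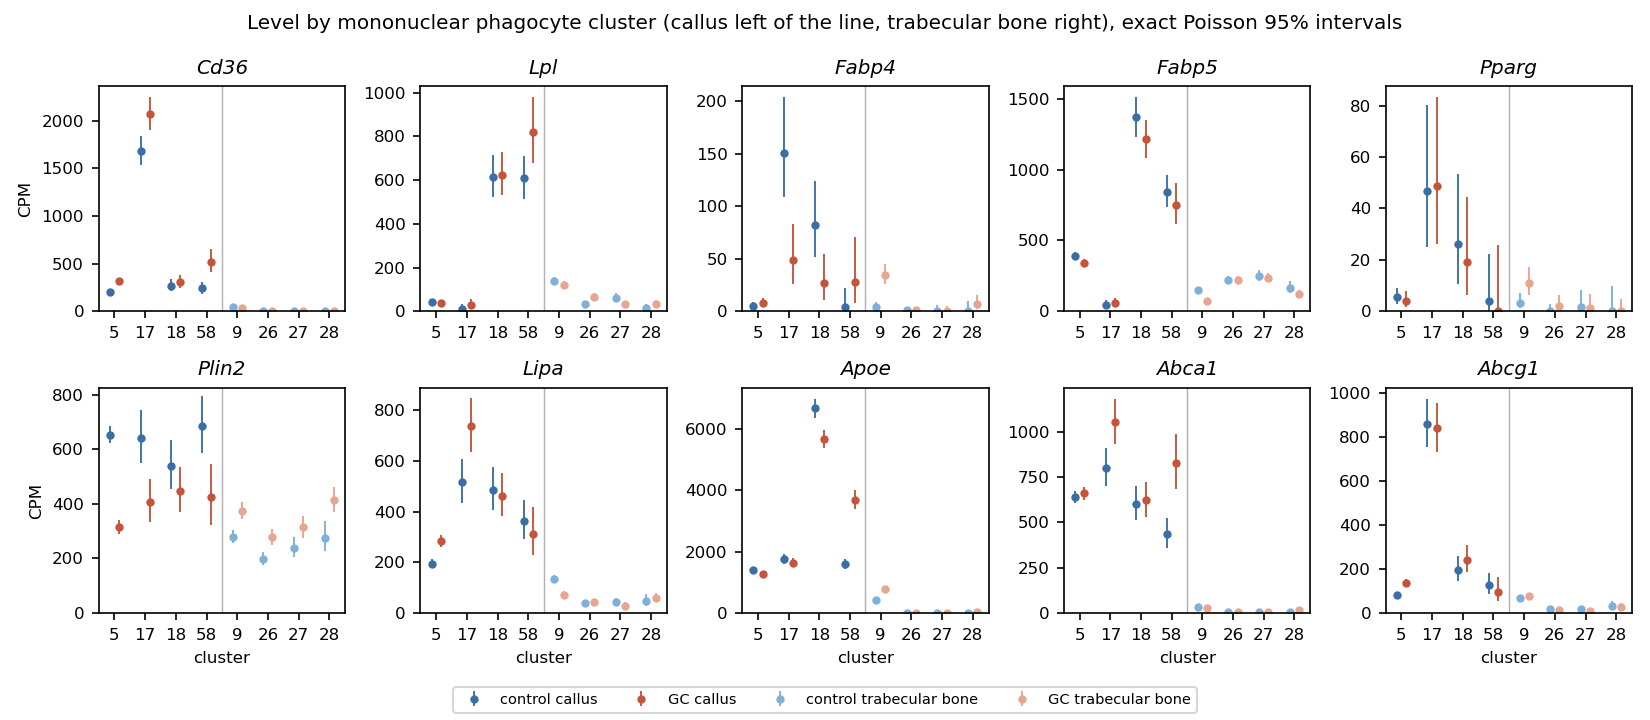
Level in CPM of each of the 10 genes by phagocyte cluster, with callus clusters 5 and 17 (monocytes) and 18 and 58 (C1q macrophages) left of the line and 4 trabecular monocyte clusters right of it, and exact Poisson 95% intervals as bars; each panel has its own linear axis. Cd36 and Abcg1 peak in cluster 17, Lpl and Fabp5 in clusters 18 and 58, and Plin2 is lower in GC than in control in the 4 callus clusters and higher in the 4 trabecular ones.

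For GC against control, the 2 callus libraries were compared within classes. A gene was counted as past 2-fold when its log2 ratio of (CPM + 5) was at least 1 in size and it had at least 50 UMIs over both libraries. In callus mononuclear phagocytes 0 of the 10 genes were past 2-fold, while 3.08% of 7182 genes were (221 genes). The median log2 ratio of the 10 genes was 0.03, against 0.04 over all those genes, with 5 above and 5 below 0.

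Within that range, Cd36, Lipa and the efflux pumps were higher over the summed phagocytes of GC callus, and the droplet coat gene was lower. Not every cluster shared the class direction. Cd36 was 1.5 times as high in GC as in control phagocytes (1.38 to 1.63), with the same ratio to 2 digits in monocytes and in C1q macrophages. By cluster the ratios were 1.59 (1.41 to 1.79) in cluster 5, 1.23 (1.09 to 1.40) in cluster 17, 1.14 (0.818 to 1.59) in cluster 18 and 2.17 (1.53 to 3.10) in cluster 58, so all 4 were above 1 and the interval of cluster 18 held 1. Abcg1 went from 162 to 217 CPM, 1.34 times (1.19 to 1.51). By cluster it was 1.69 times as high (1.40 to 2.04) in cluster 5, while the intervals of the others held 1. Those ratios were 0.977 (0.810 to 1.18) in cluster 17, 1.22 (0.832 to 1.79) in 18 and 0.760 (0.375 to 1.47) in 58. Lipa went from 259 to 350 CPM, 1.35 times (1.23 to 1.49), with cluster ratios of 1.47 and 1.43 in the monocytes and 0.947 and 0.859 in the C1q macrophages. Abca1 was 1.11 times as high (1.04 to 1.18). Its interval held 1 in clusters 5 and 18, at 1.03 (0.955 to 1.11) and 1.03 (0.825 to 1.29). In clusters 17 and 58 Abca1 was 1.315 (1.10 to 1.58) and 1.90 (1.45 to 2.48) times as high.

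Plin2 had the widest difference of the 10 in callus phagocytes. Its level was 644.5 CPM in control (2075 UMIs) and 342.8 CPM in GC callus (900 UMIs), a ratio of 0.532 (0.491 to 0.575). The UMIs were spread over the cells: 500 of 630 control monocytes and 350 of 601 GC monocytes had one, and the 5 cells with most held 4.83% and 4.43% of them. All 4 clusters had ratios below 1, at 0.482, 0.633, 0.827 and 0.620, and the interval of cluster 18 held 1. Fabp4 was 0.621 times as high on 77 and 39 UMIs, and its clusters went both ways, at 1.55 in cluster 5, 0.323 in 17, 0.326 in 18 and 6.95 in 58, with intervals that held 1 in clusters 5 and 58. Fabp5 was 0.882 times (0.815 to 0.953).

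The ratio intervals of Apoe, Lpl and Pparg held 1 in callus phagocytes. Apoe was at 1879 CPM in control and 1870 CPM in GC callus, a ratio of 0.995 (0.958 to 1.03), although cluster 58 was 2.33 times as high in GC and cluster 18 was 0.848 times as high. Lpl was 1.05 times as high (0.906 to 1.21). With cells called by the UMI cutoff alone its log2 ratio went from 0.06 to -1.03 and that of Lipa from 0.43 to -0.14. In callus that cutoff applied to the control library only, where 2998 of 7416 called barcodes lay over it. All called GC callus cells stayed in, so the setting compared deep control cells with GC cells of any depth. Pparg was 0.938 times as high (0.540 to 1.61) on 34 and 26 UMIs. Chondrocyte markers, which phagocytes should lack, summed to 3249 CPM in phagocytes of control callus and 1082 CPM in those of GC callus, with all 12 present in both libraries, and their part in these ratios was not tested.

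Plin2 was lower in GC callus beyond the phagocytes. The gene had at least 50 UMIs in 10 comparable callus classes, its ratio was below 1 in all 10 with every interval below 1, and the ratios ran from 0.414 in osteoblasts or osteocytes to 0.720 in C1q macrophages. Of 2092 genes with enough UMIs in the same 10 classes, 6.93% were below 0 in all 10 and 6.69% above. In neutrophils, the class with the highest level, Plin2 was 847.5 CPM in control and 445.7 CPM in GC callus. Most control neutrophils lay in cluster 1 (1303 control and 68 GC cells) and most GC neutrophils in cluster 0 (250 and 1147 cells), and within these the ratios were 0.817 (0.623 to 1.05) and 0.479 (0.409 to 0.562). In cluster 12 (129 and 172 cells) the ratio was 0.853 (0.720 to 1.01), so the interval held 1 in 2 of the 3 neutrophil clusters. Hypertrophic chondrocytes went from 100.3 to 54.1 CPM and osteoclasts from 158.5 to 106.8 CPM. Empty droplets of control callus held Plin2 at 120.2 CPM (interval 99.1 to 144). Several control classes lay near or below that, with chondrocytes at 35.7, bone-forming cells at 31.8, dendritic cells at 96.9 and endothelial cells at 105.2 CPM. GC callus was deposited without empty droplets, so the part of background in these ratios was not tested.

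Trabecular monocytes ran against this for Plin2. In trabecular monocytes it was 245 CPM in control (1076 UMIs) and 341 CPM in GC bone (1580 UMIs), a ratio of 1.39 (1.29 to 1.51), and the 4 clusters with enough cells gave 1.34, 1.41, 1.31 and 1.5, each with an interval above 1. Granulocyte-monocyte progenitors were also higher, at 84.8 against 105.9 CPM, while erythroid cells were lower, at 25.3 against 12.8 CPM. That erythroid log2 ratio of -0.77 lay near the median of -0.60 over the 6068 genes tested in the class. It kept its sign in 10 of 14 alternative settings. Of the 5 comparable trabecular classes, 3 had a Plin2 log2 ratio above 0 and 2 below. Hematopoietic stem or progenitor cells were at 0.32, with values from -2.12 to 1.73 over 14 settings. B cells were at -3.28 with 16 cells in GC trabecular bone, in a class where 43.0% of 4876 genes were past 2-fold. Trabecular neutrophils were compared by cluster only, because the leading genes of their largest control cluster were not the class's markers and most control and most GC cells lay in different clusters: of 8 clusters with enough cells, 8 had a ratio above 1, from 1.04 to 4.47, and in 4 of them the interval held 1. These clusters held 25 to 237 GC cells each, so most of the 3147 GC neutrophils lay outside them. The ratio of 4.47, in cluster 37, rested on 5 and 13 UMIs. The share of all genes above 1 in all 8 clusters was not computed, and the class median log2 ratio over all genes was 0.10. Empty droplets of trabecular bone held Plin2 at 202.1 CPM (163 to 247) in control and 188.6 CPM (153 to 230) in GC. The control monocyte level lay within the first interval, and the granulocyte-monocyte progenitors and erythroid cells lay below both levels. The part of background in the trabecular ratios was not tested. That the direction differed between the tissues was not tested.

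**Figure D4:**
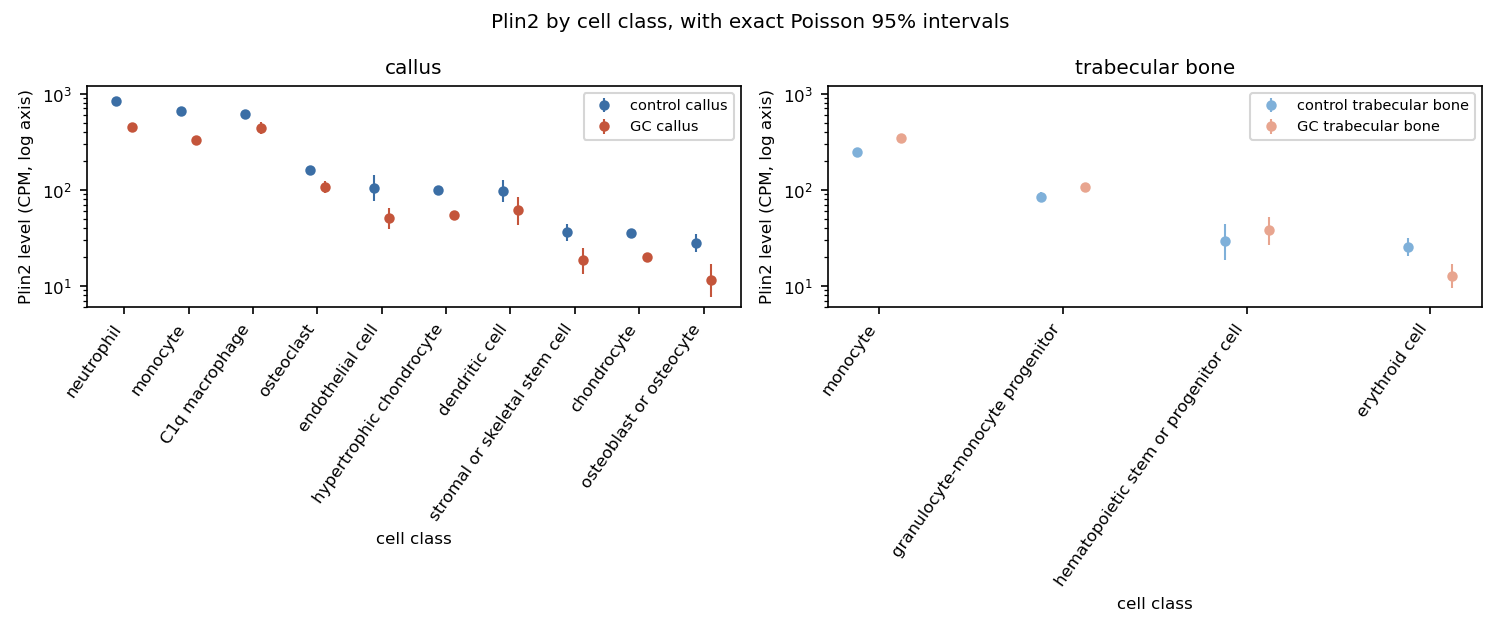
Plin2 level in CPM (log axis) by cell class in control and GC libraries of callus (left) and trabecular bone (right), with exact Poisson 95% intervals as bars; trabecular neutrophils, which were compared by cluster only, and B cells, with 16 cells in GC trabecular bone, are left out. The GC callus point lies below the control point in each of the 10 callus classes, whereas monocytes of trabecular bone are at 245 CPM in control and 341 CPM in GC.

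In trabecular monocytes 1 of the 9 members with enough UMIs was past 2-fold, against 0.898% of 8570 genes. It was Fabp4, at 2.05 CPM in control (9 UMIs in 3 cells) and 12.9 CPM in GC (60 UMIs in 26 cells), a ratio of 6.32 with an interval from 3.12 to 14.5, and it was no longer past 2-fold with a pseudocount of 20 CPM, a minimum of 100 UMIs or thinned cells. Empty droplets of trabecular bone held Fabp4 at 8.60 CPM (4 UMIs) in control and 11.8 CPM (6 UMIs) in GC. The GC monocyte level lay near the latter, and the part of background in this ratio was not tested. The median log2 ratio of the 9 genes was -0.10, against -0.01 over all genes tested. Apoe was 1.48 times as high in GC (1.36 to 1.62), nearly all of it in cluster 9, where it went from 428 to 774 CPM. The Apoe level in empty droplets of trabecular bone was 75.2 CPM (35 UMIs) in control and 108 CPM (55 UMIs) in GC. Its part in the Apoe ratio was not tested. Lipa was 0.652 times as high (0.551 to 0.771), Cd36 0.650 times (0.461 to 0.910), and Fabp5 0.831 times (0.751 to 0.921). For Cd36 the interval within cluster 9, which held 82 of its 89 control UMIs and 55 of its 61 GC UMIs, was 0.546 to 1.12. Thinning to 1000 UMIs turned its direction, with a Cd36 UMI in 2 of 277 control and 6 of 295 GC monocytes. Erythroid markers in these monocytes summed to 360.6 CPM in control trabecular bone and 1277 CPM in GC trabecular bone, with all 10 present in both, and their part in the ratios was not tested.

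**Figure D5:**
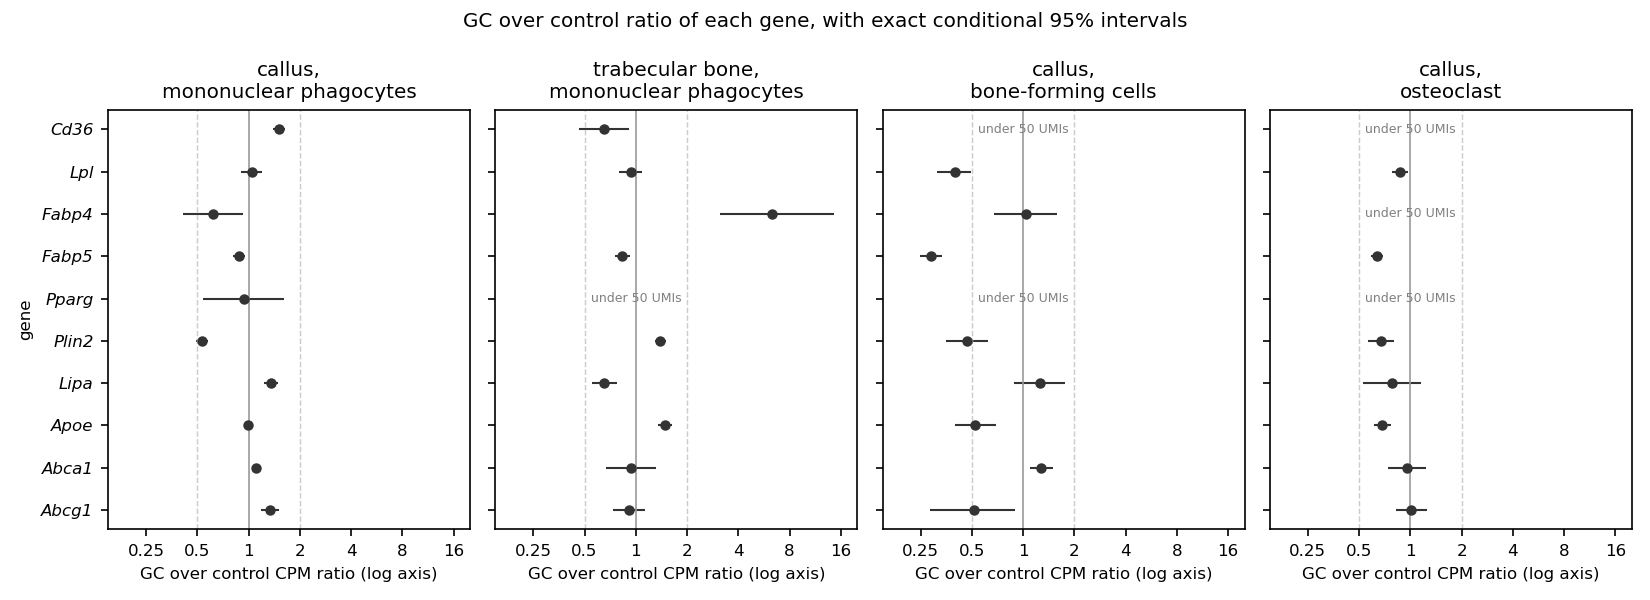
GC over control CPM ratio (log axis) of each of the 10 genes in callus and trabecular mononuclear phagocytes, callus bone-forming cells and callus osteoclasts, with exact conditional 95% intervals as bars, a line at 1 and dashed lines at 0.5 and 2; genes under 50 UMIs are not drawn. Plin2 lies at 0.532 in callus phagocytes and at 1.39 in trabecular phagocytes, and Cd36 at 1.5 and 0.650.

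In bone-forming cells of callus Lpl and Fabp5 were lower in GC, while Fabp4 was 1.03 times as high with an interval that held 1 and Cd36 had 4 and 3 UMIs. Of 8 members with enough UMIs 2 were past 2-fold lower, Fabp5 and Lpl, and 0 higher, against 0.603% of 9616 genes past 2-fold lower. Fabp5 went from 153.5 to 44.3 CPM, a ratio of 0.288 (0.247 to 0.336), and Lpl from 55.1 to 21.8 CPM, a ratio of 0.396 (0.314 to 0.496). Empty droplets of control callus held Fabp5 at 148.6 CPM (125 to 175), near the control level of the bone-forming cells. GC callus was deposited without empty droplets, so the part of background in the Fabp5 ratio was not tested. A few cells held much of these counts: 1 control osteoblast or osteocyte held 165 of the 385 Fabp5 UMIs of that class, and 5 cells held 80.7% of its 145 Lpl UMIs. Within osteoblast or osteocyte clusters 41 and 42 the Lpl ratio was above 1, at 1.79 and 1.69 on few UMIs, and the low class value came from cluster 44, at 452 against 52.1 CPM. The Lpl class value turned positive with at least 500 genes per cell and at Leiden resolution 1.6. The control stromal cells were less uneven, since 100 of 163 cells had a Fabp5 UMI and the 5 highest held 33.6%. There Fabp5 went from 185 to 52.2 CPM and Lpl from 64.0 to 29.5 CPM. These stromal cells fell into clusters of unequal make-up, with 76 control and 60 GC cells in cluster 39, 27 and 91 in cluster 40, and 60 and 24 in cluster 43. Fabp5 was lower in all 3, at 0.322, 0.496 and 0.40 times with intervals below 1, whereas Lpl was 0.480 times as high (0.336 to 0.675) in cluster 39 and had intervals that held 1 in clusters 40 and 43, at 1.58 and 0.542 times. Osteoclast markers summed to 756 CPM in osteoblasts or osteocytes of control callus and 334 CPM in those of GC callus, and to 691.5 and 512.6 CPM in the stromal cells, and their part was not tested.

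Fabp5, a fatty acid binder made in many tissues, was lower in GC callus in 11 of the 13 classes where it had enough UMIs, and 8 of those had intervals below 1; 22.9% of the 493 genes with enough UMIs in all 13 were lower in at least 11. Osteoclasts went from 737.5 to 468 CPM (0.635 times, 0.586 to 0.688) and chondrocytes, its main pool of UMIs, from 105.5 to 59.5 CPM (0.564 times, 0.531 to 0.60). The control chondrocyte level lay below the 148.6 CPM of Fabp5 in empty droplets of control callus, and the part of background was not tested. Dendritic cells and erythroid cells were higher, at 1.80 and 6.16 times, the latter on 10 and 50 UMIs and with the opposite sign in 4 of the alternative settings. Lpl in osteoclasts was 340 and 295 CPM, 0.868 times (0.778 to 0.967), and 0 of 7 members with enough UMIs were past 2-fold in osteoclasts, against 1.65% of 7032 genes.

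In trabecular bone Fabp5 was higher in GC among progenitors, from 176 to 258 CPM in hematopoietic stem or progenitor cells and from 122 to 175 CPM in granulocyte-monocyte progenitors (1.43 times, 1.29 to 1.59). Apoe was also higher in the stem or progenitor cells, at 231 and 438 CPM, a ratio of 1.90 (1.59 to 2.28) over 40 and 52 cells. Mast cells or basophils had Apoe at 416 CPM in control and 210 CPM in GC bone. Against these, Apoe in empty droplets was 75.2 CPM in control and 108 CPM in GC trabecular bone, and the part of background was not tested.

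Fabp4 in callus belonged to endothelial cells, which held 67.7% of its UMIs in control and 76.1% in GC callus. The class had 49 control and 139 GC cells and was not 1 population: cluster 59 held 58 GC cells and 0 control cells and was led by Cxcl12, Col4a1 and Cdh5 with the pericyte marker Rgs5 and with Mmp13, whereas cluster 19 held 49 and 81 cells. Over both clusters Fabp4 was lower in GC, at 2615 and 1696 CPM, but within cluster 19 it was higher, at 2615 and 4900 CPM, 1.87 times (1.74 to 2.02). Within cluster 19 the uptake genes were higher too, Cd36 at 84.1 and 383 CPM (4.55 times, 3.16 to 6.72) and Lpl at 42.1 and 253 CPM (6.01 times, 3.64 to 10.5), and Pparg at 25.7 and 91.2 CPM (3.55 times, 1.79 to 7.66). Abcg1 was 0.731 times as high there, with an interval that held 1. Fabp5 and Plin2 were lower in cluster 19, at 0.673 times (0.498 to 0.906) and 0.542 times (0.318 to 0.903). The share of all genes past 2-fold within cluster 19 was not computed. Over the whole class 3 of the 10 members were past 2-fold, Lpl higher and Fabp5 and Abcg1 lower, against 17.9% of 5142 genes, so the class as a whole differed widely between the libraries.

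Over all callus cells Fabp4 was 2.65 times as high in GC, at 20.6 and 54.8 CPM, and Cd36 2.01 times, at 16.4 and 32.9 CPM, while the shares of cells by class differed too. Fabp4 was the only member past 2-fold there, against 0.549% of 15109 genes. Endothelial cells were 0.730% of control and 2.02% of GC callus cells. In trabecular bone 0 of 9 members were past 2-fold over all cells, against 1.05% of 12153 genes.

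Neutrophils of callus carried the efflux pumps as well as Plin2. Those of trabecular bone had little of the pumps. In control clusters 0, 2 and 4 there, Abca1 was 20.9, 2.46 and 4.30 CPM and Abcg1 20.9, 7.37 and 7.52 CPM. Abcg1 in callus neutrophils was 234 CPM in control and 379 CPM in GC (1.62 times, 1.45 to 1.81), and by cluster it was 1.13 times as high (0.932 to 1.38) in cluster 0, 1.38 times (0.915 to 2.02) in cluster 1 and 3.59 times (1.94 to 7.16) in cluster 12, where it had 13 and 57 UMIs. Lipa was 30.4 and 66.1 CPM, just past 2-fold by the rule, against 6.55% of 5310 genes, and was the only member past it of the 6 with enough UMIs. Its interval held 1 within cluster 0, at 1.59 times (0.919 to 2.94), and within cluster 1, at 2.55 times (0.981 to 5.62) on 55 and 7 UMIs. In cluster 12 the Lipa ratio was 3.83 (1.07 to 20.8) on 3 and 14 UMIs. Abca1 was 337 and 291 CPM over the class. Within cluster 0 it was higher in GC, 1.31 times (1.015 to 1.70), and within cluster 1 too, 1.41 times (1.017 to 1.91). In cluster 12 the Abca1 ratio was 0.80 (0.596 to 1.08). Cd36 was 1.67 CPM (4 UMIs) and 15.6 CPM (29 UMIs).

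B cells, too, carried efflux genes and Apoe. In callus their Abca1 was 265 and 240 CPM and their Abcg1 164.5 and 187 CPM, with both ratio intervals holding 1, whereas Apoe was lower in GC, at 489 and 274 CPM (0.560 times, 0.472 to 0.660). Apoe in empty droplets of control callus was 189.8 CPM, and the part of background in its ratio was not tested. Plasmacytoid dendritic cells of the control libraries had Abcg1 at 180.3 CPM in callus and 179.3 CPM in trabecular bone.

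A further 54 genes of lipid handling were listed for comparison. Of the 37 with enough UMIs 3 were past 2-fold higher and 2 lower, against 1.59% and 1.49% of all genes, with 23 above and 14 below 0 and a median log2 ratio of 0.14. The lowest in callus phagocytes were Hilpda, a droplet protein that inhibits lipolysis, at 495 and 126 CPM (0.254 times, 0.225 to 0.286), G0s2, another lipolysis inhibitor, with 52 and 2 UMIs (0.0472 times, 0.00556 to 0.179), and Dgat1, which makes triglyceride, at 29.8 and 15.6 CPM. The highest were Mylip, a ubiquitin ligase induced by sterols, at 66.8 and 217 CPM (3.25 times, 2.77 to 3.82), Cav1, a caveolar coat protein, at 11.2 and 34.3 CPM, and Npc1, which exports cholesterol from lysosomes, at 194 and 399 CPM (2.06 times, 1.86 to 2.28).

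In trabecular monocytes 36 of the 54 had enough UMIs and none was past 2-fold, against 0.898% of 8570 genes. Of the 36, 16 were above and 20 below 0, with a median of -0.08 against -0.01 over all genes tested. Among the lowest were the scavenger receptor Olr1, at 15.2 and 7.55 CPM, and the sterol hydroxylase Cyp27a1, at 12.5 and 6.69 CPM. The highest were Acsl1, which activates fatty acids, at 45.8 and 60.4 CPM, the transcription factor Cebpa, at 69.4 and 99.9 CPM, and Apoc2, the Lpl cofactor, at 99.5 and 172 CPM. Hilpda, chosen here for its callus value, was at 40.1 and 28.1 CPM in trabecular monocytes and G0s2 at 51.5 and 42.3 CPM.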

How the data were processed

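The 4 libraries hold UMI counts per gene and barcode. The counts were deposited as the authors' Cell Ranger output, unnormalized and not pooled; the submitters' processing notes name Cell Ranger 5.0.1, Seurat 3.2.0 and mm10, whereas the file headers name an earlier Cell Ranger. No columns of the authors' comparisons were present. In 3 libraries cells were called by a UMI cutoff with a Monte Carlo rescue of small profiles, and the GC callus matrix came with called cells only.

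Cells with at least 200 genes and at most 10% mitochondrial UMIs were kept, the highest doublet scores were removed at 0.8% per 1000 cells, and each tissue was clustered on 2000 variable genes, 30 principal components and 15 neighbours (Leiden resolution 1; leidenalg 0.10.2, scikit-learn 1.9.0, scipy 1.17.1). Members and lipid genes were left out of the variable genes. Clusters were named from at least 3 markers at 2-fold or more, and those with fewer stayed unnamed. Also left unnamed were clusters whose leading genes were those of another well-scoring class, or that scored for both blood and non-blood classes. The same held for shallow clusters with at most 1 own marker among their leading genes. Classes needed 15 cells in a library. T cells of callus and neutrophils of trabecular bone were not compared as classes between conditions, because a cluster was led by markers of another class. Depth was 6714, 3830, 6890 and 4604 cells in control callus, control trabecular bone, GC callus and GC trabecular bone.

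UMIs were summed per class and library, and levels, ratios and intervals were computed from the sums. Log2 ratios used a pseudocount of 5 CPM, so they understate changes of low genes. Cells are not replicates and no p-value is given. The ratio code was tested on simulated data. The genes named are the 10 members, the 3 highest and 3 lowest lipid genes by GC ratio in phagocytes of each tissue, and the 3 genes (5 for Cd36) most like each member across classes; 1 gene that this rule names is not reported here. Hilpda and G0s2 in trabecular bone were added after their callus values were seen, as were the cluster splits and the alternatives that leave out clusters. Members, lists and rules were chosen with earlier results of these data known. Promoters come from RefSeq (GRCm38.p6) and gene spans from GENCODE M21.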

Additional observations from a re-analysis of the deposited data

Results flagged for a closer look

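The GC over control ratio of 7 gene and class pairs lay on opposite sides of 0 in callus and in trabecular bone, with both counting intervals of the ratio clear of 1. The share of all genes that do so was not computed, so the count says nothing particular about these genes. Each tissue had 1 library per condition, so the difference between tissues was not tested. All values are log2 ratios of (CPM + 5), callus first. In mononuclear phagocytes, Plin2 was at -0.90 and 0.47, Cd36 at 0.58 and -0.48, Lipa at 0.43 and -0.57, and Fabp4 at -0.54 and 1.35; the callus clusters of Fabp4 went both ways. Trabecular phagocytes were monocytes alone, whereas callus phagocytes included C1q macrophages. Fabp5 in erythroid cells was at 2.52 and -1.10, with 10 and 50 UMIs in callus. In trabecular erythroid cells the median over all genes tested was -0.60. Apoe in B cells was at -0.83 and 4.13, the latter from 16 cells with 32 UMIs in GC trabecular bone. In trabecular B cells 43.0% of 4876 genes were past 2-fold and the median was -0.60. Apoe in stromal cells was at -0.75 and 1.44, the latter from 7 and 45 UMIs.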

How the results depend on the processing

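No paired analysis was possible because each group had 1 library and the labels give no replicate numbers. The Cd36 gap between phagocytes and bone-forming cells ran from 5.23 to 6.07 (log2) in control callus over 15 settings. In GC callus it ran from 5.76 to 7.03, also over 15 settings. Other pseudocounts than 5 CPM were not among these settings. The size of the gap depends on the pseudocount, since bone-forming cells had 0.685 and 0.642 CPM. Plin2 was lower in GC in 9 or 10 of the callus classes over 14 settings, and its log2 ratio in callus phagocytes ran from -0.99 to -0.47 and in trabecular phagocytes from 0.38 to 0.57. Cd36 in callus phagocytes (0.58) was 0.37 as a mean over cells. Members past 2-fold in callus phagocytes (0) numbered 2 with the UMI cutoff alone and 1 at 1.5-fold. With the UMI cutoff alone the callus classes with lower Fabp5 (11) numbered 7. In callus this cutoff removed control cells only, since GC callus came with called cells. In trabecular phagocytes Cd36 (-0.48) was 0.75 with thinned cells, and the count of members past 2-fold (1) was 0 with thinned cells, with a pseudocount of 20 CPM and with at least 100 UMIs. Of 2346 values for 168 other ratios, 1995 moved by no more than the distance from the counting interval's middle to its end. Where a count was 0 that distance has no limit. The sign changed in 147 values, among them values of Apoe in callus phagocytes, which kept its reported sign in 11 of 17 settings. For ratios past 2-fold the sign turned or the difference was lost in 10 values. Fabp5 in callus erythroid cells was -2.66 at 5% mitochondrial UMIs, -0.12 with no doublets removed and -1.40 at Leiden resolutions 0.6 and 1.6. Lpl in callus osteoblasts or osteocytes was 0.32 with at least 500 genes per cell and 0.94 at resolution 1.6. Fabp5 in trabecular erythroid cells was 0.00 with the lowest class level of each library taken off. That setting puts a class that is itself the lowest at 0, so 0.00 cannot show a lost difference there. Abcg1 in callus endothelial cells was 0.41 with thinned cells. Apoe in trabecular stromal cells, alone or as bone-forming cells, was -0.39 as a mean over cells. The cause was not tested. The alternatives without monocyte cluster 17, without endothelial cluster 59, without clusters of at least 95% 1 library and with stromal cluster 42 alone were chosen after seeing the data. Depth limits Pparg most, with 34 and 26 UMIs in callus phagocytes.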

Other observations

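The genes most like each member were sought over 53 profiles of a class in a library, among 8500 genes with at least 50 CPM in 1 profile, by Pearson's r of log2(CPM + 5). The profiles share 4 libraries and their depth, so r is a description only. Nearest to Cd36 were Rab3il1 (0.73), Tmem131 (0.71), Ifit1 (0.71), Ednrb (0.68) and Rsad2 (0.68), and Ifit1 and Rsad2 are genes induced by interferon. Fabp4 lay nearest to the endothelial genes Flt1 (0.92) and Gpihbp1 (0.91) and to She (0.89). Gpihbp1 is the endothelial anchor of Lpl. Pparg lay nearest to Flt1 (0.85), Itga9 (0.81) and Ednrb (0.80). Plin2 lay nearest to Cd14 (0.85) and Tlr2 (0.83), receptors for bacterial products, and to Esd (0.82).

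Lpl lay nearest to Axl (0.84), Mitf (0.82) and Myof (0.82), and Mitf is a transcription factor of osteoclasts and other lysosome-rich cells. Apoe lay nearest to C3ar1 (0.74), Lgals8 (0.73) and Tpp1 (0.69), and Fabp5 to Gas2l3 (0.76), Vps35 (0.75) and Txnrd1 (0.71). Abca1 lay nearest to Fbxo11 (0.82), Smcr8 (0.80) and Sgpl1 (0.79), Abcg1 to Slc38a1 (0.83), B2m (0.82) and Ifnar1 (0.81), and Lipa to Mmp19 (0.83), Ifi207 (0.83) and Rnh1 (0.82). Among the 10 members themselves, the highest values of r were 0.78 for Fabp4 with Pparg, 0.69 for Plin2 with Lipa, 0.67 for Lpl with Pparg and 0.65 for Fabp5 with Plin2.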
